A study of Mus musculus with 12 samples.

Results

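The immunoglobulin variable genes outside the receptors that typically bind phosphatidylcholine are described here, as measured by 84 rows of a mouse bead array that holds 45281 rows. The rows were taken by symbol, those beginning with IGHV, IGKV, IGLV, Igh-V, Igk-V or Igl-V. Rows of Igh-V11, Igh-VS107, IGHV12S1, IGKV9-128 and IGKV4-91 were set aside by name, as linked to receptors for phosphatidylcholine (PtC) or for phosphorylcholine. Whether these rows read the genes of such receptors was not tested. That left 57 heavy chain rows with 56 symbols and 27 light chain rows with 24 symbols. Where a symbol has more than 1 row, the rows are called probe a and probe b, and symbols are given without the sequence-record suffix that some carry on the array.

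A B cell builds its antigen receptor by joining 1 variable gene to D and J segments for the heavy chain and 1 variable gene to a J segment for a kappa or lambda light chain. As a rule each cell keeps 1 heavy and 1 light chain, so a mixed population of B cells holds mRNA of many variable genes, while the descendants of a single cell share the same pair. The heavy chain variable genes fall into families. IGHV1, formerly J558, is the largest of them in common mouse strains, and most light chains in the mouse are kappa. B-1 cells of the peritoneal cavity are known for a restricted repertoire, in which receptors for PtC, a lipid of cell membranes, are frequent.

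The cells came from mice of mixed C3H/C57BL/6 background and were called chronic lymphocytic leukaemia cells in the labels of every group, the wild type included. Cells that bound PtC (PtC+) and cells that did not (PtC-) were profiled apart. Wild type peritoneal cells gave 1 PtC+ and 1 PtC- array, and so did peritoneal cells labelled young TCL1, named for the TCL1 oncogene. TCL1-192 cells gave 2 PtC+ and 2 PtC- arrays from the peritoneum and the same numbers from the spleen, 12 arrays in all. The sources used here do not give ages, donor animals, sorting gates, the promoter of the transgene or what 192 stands for. They do not say whether the 2 TCL1-192 replicates came from separate animals, so p-values measure a spread between arrays that may be technical.

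A row counts as detected where its detection p-value, which sets its signal against the negative control beads of the same array, is under 0.05. Of all rows, 30.5% to 33.6% were detected on 11 of the arrays. The share was 23.7% on replicate 2 of PtC- TCL1-192 peritoneum, an array with raised background (median signal 219.2 against 99.4 to 121.4). Levels are normalized log2 signals. The lowest level of a detected row was 5.49 to 5.69 on 11 arrays and 6.46 on the array with raised background, and the ceiling of the scale was 15.48. Of the fixed B cell markers, 6 of 7 on the array were detected on every array, the transcription factor gene Pax5 being undetected on all 12. Signals of different rows depend on each probe, so a row is compared only with itself. Variable genes of a family are alike in sequence and the files hold no probe sequences, so a row may also read its relatives, which was not tested.

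Wild type and young TCL1 cells showed a broad repertoire, and TCL1-192 cells showed little of it. The wild type PtC- array detected 24 of the 57 heavy chain rows and 23 of the 27 light chain rows, against 33.2% of all rows. The young TCL1 PtC- array detected 22 heavy and 23 light chain rows, against 33.3% of all rows. PtC+ cells showed fewer. The wild type PtC+ array detected 9 heavy and 18 light chain rows (32.5% of all rows), and the young TCL1 PtC+ array 14 and 19 (33.6% of all rows). The young TCL1 and wild type PtC- arrays shared 21 heavy and all 23 light chain rows, and the PtC+ arrays shared 8 heavy and 17 light chain rows.

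On the TCL1-192 arrays the heavy chain rows nearly vanished. Peritoneal PtC+ cells gave 2 heavy and 5 light chain rows in replicate 1 (30.8% of all rows) and 1 and 6 in replicate 2 (30.5%). Peritoneal PtC- cells gave 1 heavy and 5 light chain rows in replicate 1 (31.5%) and 3 and 5 in replicate 2 (23.7%). Splenic PtC+ cells gave 3 and 6 in replicate 1 (33.2%) and 2 and 6 in replicate 2 (32.1%). Splenic PtC- cells gave 2 heavy and 3 light chain rows in replicate 1 (31.6%) and 4 and 6 in replicate 2 (33.1%). Every TCL1-192 array lay below every wild type and young TCL1 array in both chains, while the share of all rows detected on 11 of the 12 arrays was much the same. Over the 8 TCL1-192 arrays, 18 of 456 heavy chain row readings passed, or 3.95%, and a detection p of 0.05 by construction lets through about 5% of negative controls. For the light chain 42 of 216 readings passed, or 19.4%.

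**Figure D1:**
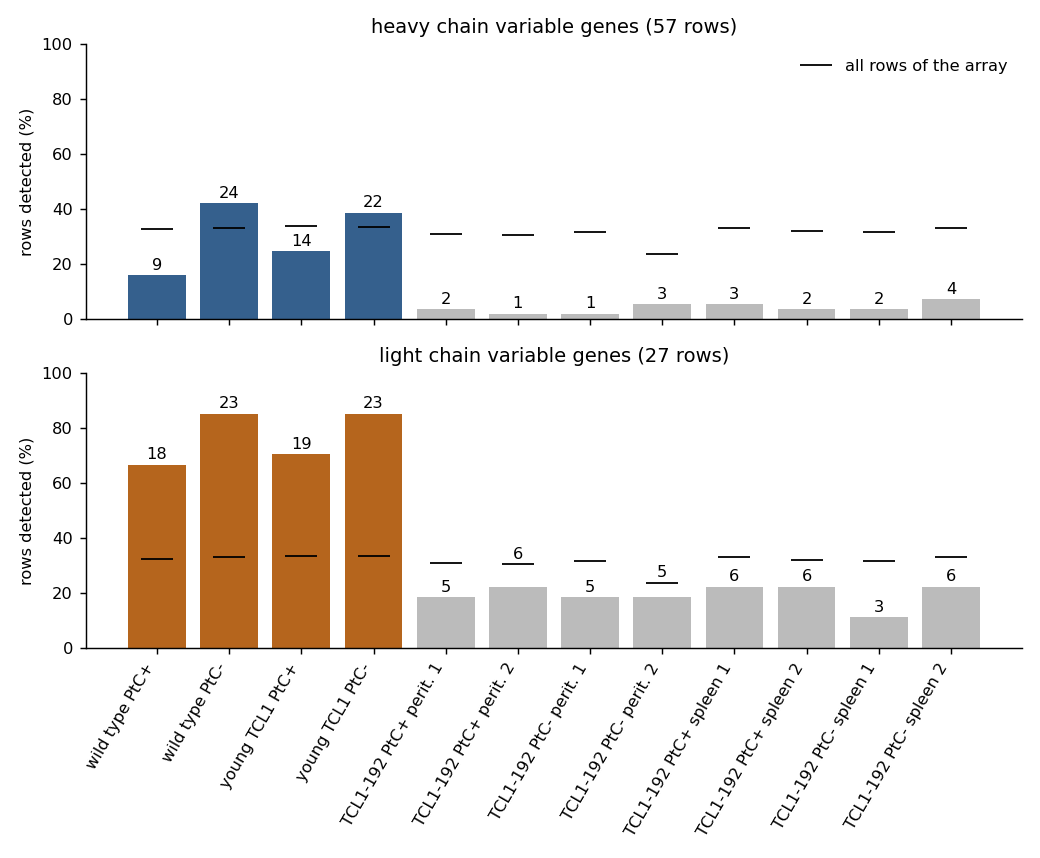
Share of the 57 heavy chain rows (upper panel) and the 27 light chain rows (lower panel) detected at a detection p under 0.05 on each of the 12 arrays. Bars give the members with their counts above, coloured for wild type and young TCL1 and grey for TCL1-192, and black dashes give the share of all 45281 rows. All grey bars are lower than all coloured bars in their panel.

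Across arrays, 25 heavy chain rows (43.86% of the 57) were detected in wild type or young TCL1 cells and 6 (10.53%) in TCL1-192 cells. For the light chain these numbers were 23 (85.19% of the 27) and 9 (33.33%). Of all rows of the array, 39.73% were detected in the former and 41.4% in the latter. Rows detected on none of the 12 arrays made up 30 of the heavy chain, or 52.63%, close to the 54.99% of all rows, at log2 levels of 4.53 to 5.49. They made up 4 of the light chain, or 14.81%, Igk-V, IGKV12-e, IGKV13-78-1 and IGKV4-75. The rows named IGHV1 numbered 38, of which 16 were detected in wild type or young TCL1 cells and 3 in TCL1-192 cells. The 2 rows under the older name Igh-VJ558, counted apart, gave 2 and 1. Both IGHV8 rows and both rows named IGHV10 were detected in wild type or young TCL1 cells and on no TCL1-192 array. The row named Igh-V10, counted apart, was undetected on all 12 arrays. The rows named IGHV6, IGHV7, IGHV13, IGHV14 and IGHV15, 1 each, were detected on none of the 12 arrays. The 6 IGKV4 rows gave 5 in wild type or young TCL1 cells and 1, IGKV4-80, on a TCL1-192 array. An undetected row does not show that the transcript was absent.

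A core of 17 rows was detected on all 4 wild type and young TCL1 arrays and on no TCL1-192 array, against 213 of all 45281 rows. Its 8 heavy chain rows were IGHV10S3, IGHV1S119, IGHV1S120, IGHV1S28, IGHV1S35, IGHV1S36, IGHV1S59 and IGHV8S6. Its 9 light chain rows included IGKV11-125, IGKV12-98, IGKV1-88, IGKV3-2, IGKV4-71 and IGKV4-73. IGHV1S119 stood at 6.61 in wild type PtC+, 11.11 in wild type PtC-, 7.1 in young TCL1 PtC+ and 10.85 in young TCL1 PtC- cells, and at 4.59 to 4.92 on the 8 TCL1-192 arrays. IGKV3-2 stood at 10.32, 11.81, 8.73 and 13.19 in the same order, and at 4.77 to 4.98 on the TCL1-192 arrays. Rows of this core were picked by their detection on the same arrays, so nothing is read from the separation of the groups.

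**Figure D2:**
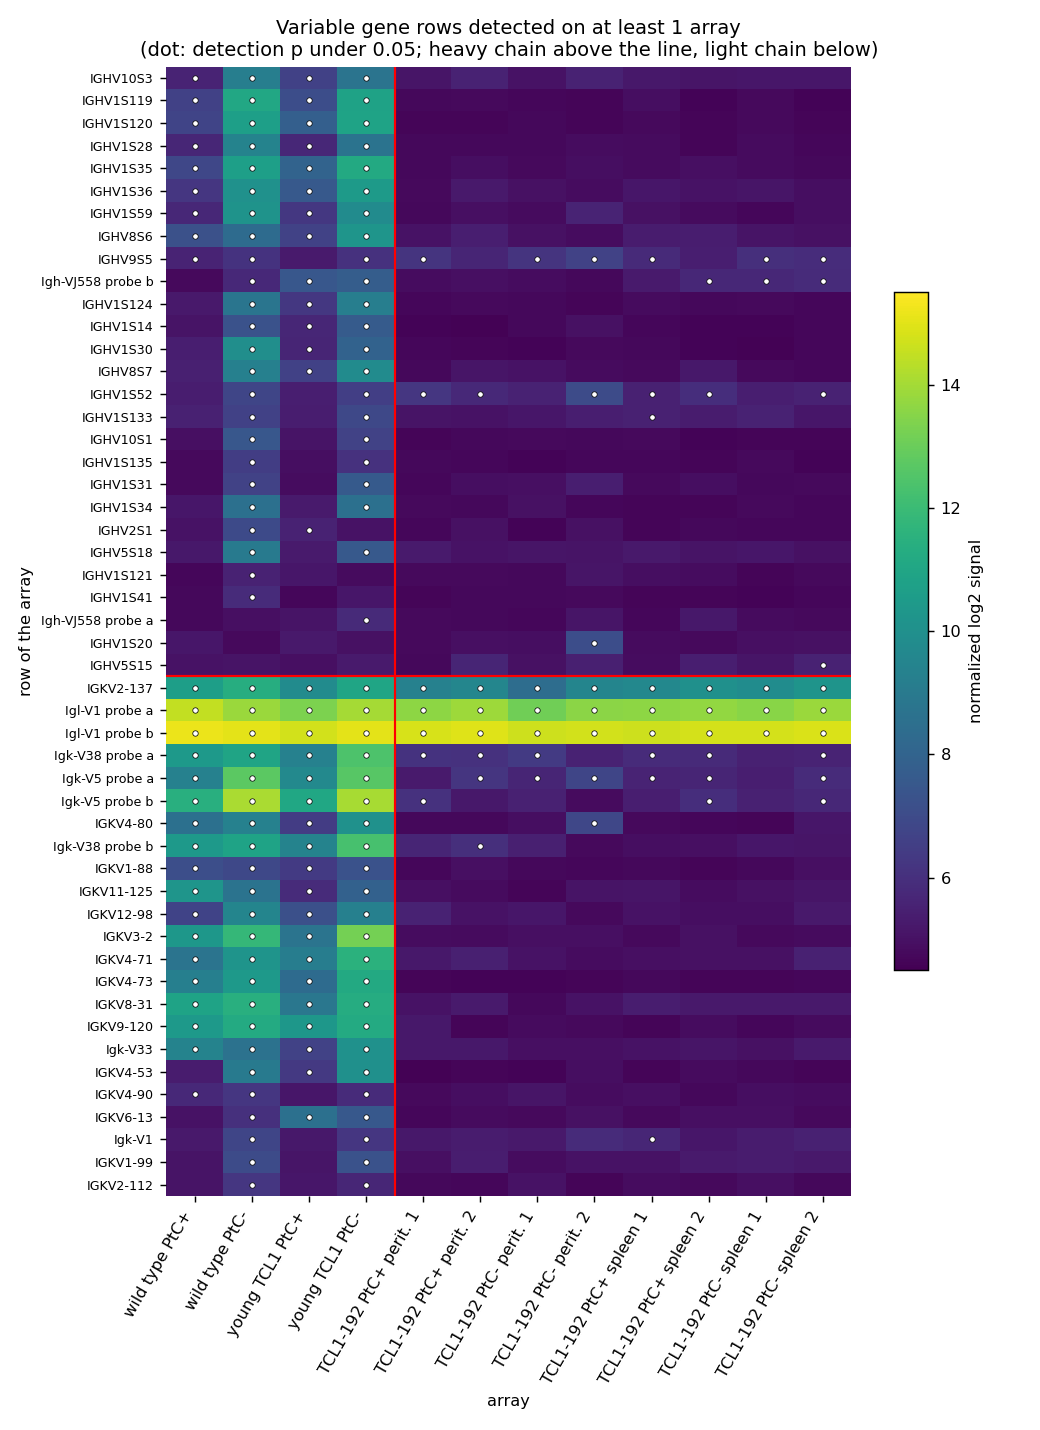
Normalized log2 signal of the 50 rows detected on at least 1 array, in 12 columns of arrays. White dots mark detection, the horizontal line parts heavy from light chain and the vertical line parts wild type and young TCL1 from TCL1-192. Dots fill the left block, most densely in the PtC- columns, and the right block holds unbroken rows of dots for IGKV2-137, Igl-V1 probe a and Igl-V1 probe b.

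The rows detected on all 12 arrays were 3 of the light chain. Igl-V1, matched to the lambda variable gene Iglv1, had both of its rows among them. Its probe b read 15.17 and 15.04 in wild type PtC+ and PtC- cells and 14.76 and 15.04 in young TCL1 PtC+ and PtC- cells. In TCL1-192 peritoneum it read 14.82 and 14.98 (PtC+) and 14.67 and 14.75 (PtC-), and in spleen 14.67 and 14.78 (PtC+) and 14.78 and 14.87 (PtC-). These levels lie close to the ceiling, where differences are compressed. Probe a ranged from 13.33 to 14.5 in wild type and young TCL1 cells and from 13.12 to 13.88 in TCL1-192 cells. The groups overlapped in both rows.

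IGKV2-137, a kappa gene, was the third. It read 10.66 and 11.34 in wild type PtC+ and PtC- cells, and 9.82 and 10.96 in the young TCL1 pair. TCL1-192 peritoneum gave 9.34 and 9.55 in PtC+ and 8.42 and 9.51 in PtC- cells, and spleen gave 9.63 and 10.02 in PtC+ and 9.87 and 10.2 in PtC- cells. All 4 peritoneal TCL1-192 arrays were below the wild type and young TCL1 arrays, while 3 of the 4 splenic arrays exceeded the lowest of these. The fall from wild type was -1.80 ± 0.314 log2 units (SE, limma adjusted p = 0.0067). The PtC-type light chain gene IGKV9-128 went the other way, from 13.45 to 14.58 in wild type and young TCL1 cells to 15.04 to 15.35 in TCL1-192 cells.

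The other rows detected on at least 4 of the 8 TCL1-192 arrays were dim there. Igk-V38 probe a, matched by synonym to Igkv19-93, read 10.46 and 10.91 in the wild type pair, 9.33 and 12.42 in the young TCL1 pair and 5.5 to 6.35 in TCL1-192 cells, where 6 of 8 arrays passed. Its probe b read 10.4, 10.9, 9.4 and 12.28 on the same arrays and passed on 1 TCL1-192 array, the PtC+ peritoneal one of replicate 2. Igk-V5 probe a read 9.32 and 12.74 in the wild type pair, 9.67 and 12.63 in the young TCL1 pair and 5.28 to 6.79 in TCL1-192 cells, passing on 6 of 8. Among heavy chains IGHV1S52 read 5.44 to 7.02 over the 8 TCL1-192 arrays and IGHV9S5 5.43 to 6.67, each passing on 6 of them, the highest value of each being on the array with raised background. In wild type and young TCL1 cells IGHV1S52 read 5.38 to 6.79 and IGHV9S5 5.28 to 6.1, so the groups overlapped in both genes.

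Of the heavy chain rows, 2 were detected in TCL1-192 cells alone, or 3.51%, below the 5.28% of all rows. IGHV1S20 read 7.09 on the array with raised background and 4.76 to 5.25 on the other 11. IGHV5S15 passed on the splenic PtC- array of replicate 2 at 5.57. At a detection p under 0.01 the heavy chain rows found on any TCL1-192 array numbered 2 in place of 6, and at 0.001 they numbered 0. The light chain rows went from 9 to 4 and 3, while wild type or young TCL1 cells kept 20 heavy and 21 light chain rows at 0.001.

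**Figure D3:**
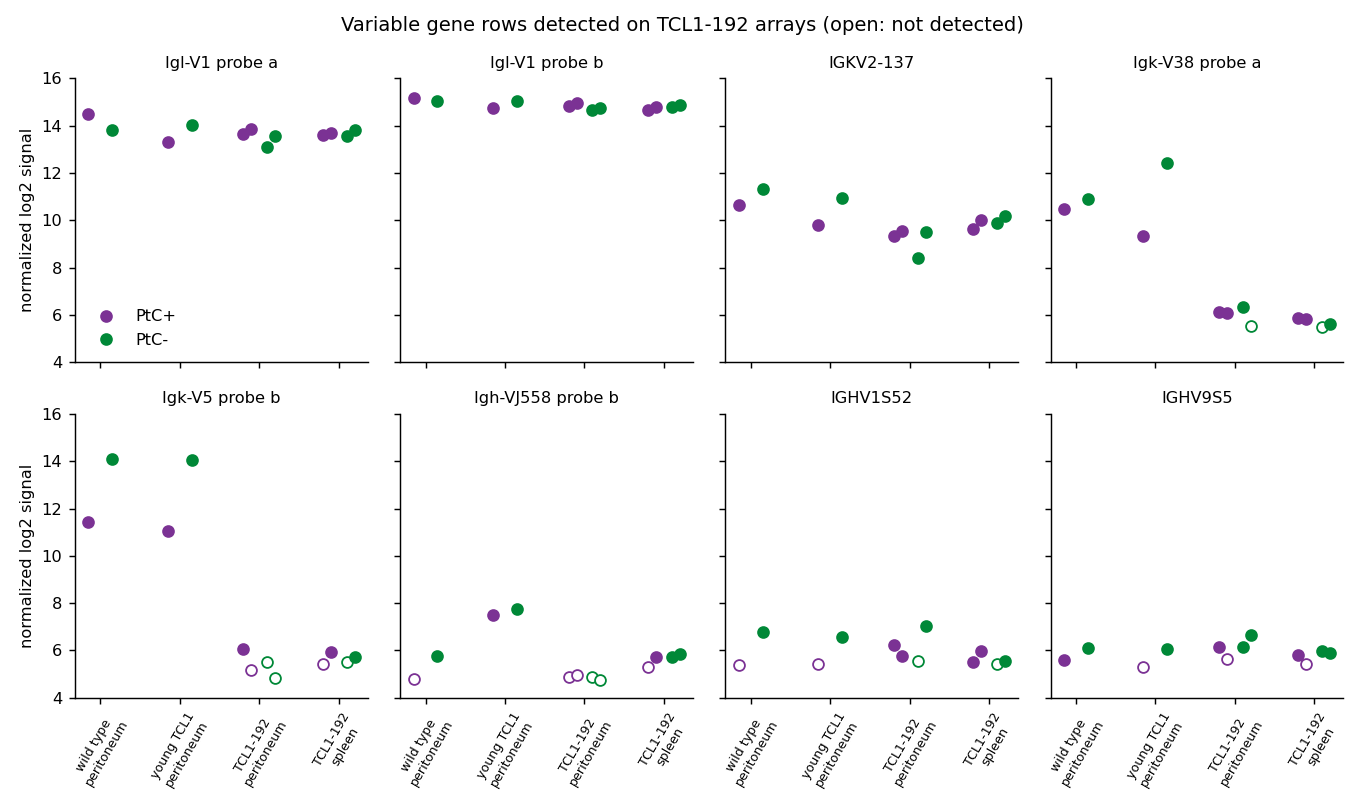
Normalized log2 signal of 8 variable gene rows on every array, by genotype and tissue, with PtC+ arrays in purple and PtC- arrays in green, filled where detected and open where not. Igl-V1 and IGKV2-137 stay detected in all 4 columns, whereas Igk-V38 probe a and Igk-V5 probe b drop from 9.33 or more to 6.35 or less in TCL1-192 cells.

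The change from wild type to TCL1-192 was tested in the peritoneum, where 4 TCL1-192 arrays met 2 wild type arrays. In limma's fit to all rows detected on at least 2 arrays, 39 of the 45 members kept were lower at an adjusted p under 0.05 and 0 were higher, 19 heavy and 20 light chain rows. Of the 18100 rows tested, 14% were lower and 11.1% higher. Of those 45 members, many were kept through their wild type and young TCL1 arrays alone and so had to differ, and therefore the count over all 84 is also given. With all rows of the array in the fit, 40 of 84 were lower and 0 higher, against 5.2% of all rows lower. The median log2 difference over all 57 heavy chain rows was -0.04 and over all 27 light chain rows -2.49, against 0.02 over all rows. The fit takes the spread of the lone arrays from the TCL1-192 replicates, which for rows undetected there is noise near the detection limit.

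The largest falls in the fit were of light chain rows. IGKV3-2 fell at least 37-fold, a bound set by the detection limit because no TCL1-192 array detected it (limma log2 difference -6.18 ± 0.155, adjusted p = 1.4e-06). IGKV8-31 fell at least 39.1-fold and IGKV9-120 at least 31.4-fold. IGKV8-31 read 10.89 and 11.42 in wild type PtC+ and PtC- cells and 4.75 to 5.29 in TCL1-192 peritoneum. IGKV9-120 read 10.46 and 11.21 against 4.65 to 5.2. IGKV4-73 fell at least 15.7-fold, from 9.23 and 10.43 to 4.59 to 4.67. Igk-V5 probe b fell by 7.36 ± 0.318 log2 units, from 11.42 and 14.11 to 6.05 on the 1 TCL1-192 peritoneal array that detected it and 4.83 to 5.53 on the others. The wild type and TCL1-192 arrays did not overlap in these rows, which follows from picking the largest falls.

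Among heavy chain rows IGHV1S119 fell at least 7.99-fold, IGHV1S35 at least 7.64-fold and IGHV1S120 at least 7.23-fold. IGHV1S120 read 6.74 in wild type PtC+ and 10.69 in PtC- cells, and 4.65 to 4.74 in TCL1-192 peritoneum. IGHV1S36 fell at least 4.84-fold and IGHV1S30 at least 3.53-fold, the latter from the wild type mean of 7.68, over 9.92 in PtC- cells and an undetected 5.44 in PtC+ cells. All 19 heavy chain rows called lower were undetected on the 4 peritoneal TCL1-192 arrays. The 6 tested members not called were Igl-V1 probe a (-0.61 ± 0.199 log2 units, limma adjusted p = 0.064), Igl-V1 probe b (-0.30), Igk-V1 (-0.60), Igh-VJ558 probe b (-0.43), IGHV1S52 (0.06) and IGHV9S5 (0.30). With PtC+ arrays alone 21 members were called, against 14.8% of all tested rows in either direction, and IGHV1S30 was not (-0.75, limma adjusted p = 0.064).

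Among the PtC-type genes in the same fit, Igh-V11 (1.08), IGKV9-128 (1.09), IGHV12S1 (0.84) and Igh-VS107 probe a (3.99) were higher in TCL1-192 cells by log2 units, and IGKV4-91 was at least 165-fold lower. In bulk RNA, fewer cells with a gene and less RNA per cell cannot be told apart. Igh-6, the IgM constant region, read 14.73 to 15.41 on all 12 arrays in 2 rows, close to the ceiling, and Igk-C sat at the ceiling on every array, so differences in these genes are compressed. IGLC2, a lambda constant region, read 14.08 to 15.02. The switched isotype row Ighg probe b read 5.1 and 9.09 in wild type PtC+ and PtC- cells and 6.31 and 8.41 in the young TCL1 pair, and fell by 2.28 log2 units in TCL1-192 peritoneum (limma adjusted p = 0.0012). The other row, Ighg probe a, was not called against wild type (-0.27, limma adjusted p = 0.3). Against young TCL1 both rows were lower, probe a by 1.66 and probe b by 2.54 (limma adjusted p = 0.00092 and 0.00097). Ighg probe a was also 1.39 higher in young TCL1 than in wild type cells (limma adjusted p = 0.025). Of the recombination genes, Rag1, Rag2 and Dntt were undetected on every array.

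Against young TCL1 cells, which share the TCL1-192 arrays of the previous comparison, 39 of 45 tested members were again lower in TCL1-192 peritoneum and 0 higher, against 10.1% of all tested rows lower. Over all 84 rows without a filter 38 were lower, against 3.8%. IGKV3-2 fell at least 34.2-fold, IGKV9-120 at least 29.9-fold and IGKV4-71 at least 22.6-fold. IGKV4-71 read 9.17 in PtC+ and 11.54 in PtC- young TCL1 cells and 4.85 to 5.47 in TCL1-192 peritoneum. Among heavy chains IGHV1S35 fell at least 13.3-fold and IGHV1S120 at least 11.3-fold. IGHV1S35 read 8 and 11.19 in young TCL1 PtC+ and PtC- cells and 4.74 to 4.9 in TCL1-192 peritoneum. IGHV8S6 fell at least 6.06-fold, from 6.67 and 10.25 to 4.86 to 5.44. Rows not called included both Igl-V1 rows (-0.12 and -0.10), IGHV1S52 (0.14) and IGHV9S5 (0.47).

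Markers of other cells moved with these comparisons. Of the follicular B-2 markers, 5 of 6 tested were lower in TCL1-192 than wild type peritoneum (median -1.23 log2 units) and 6 of 6 lower than in young TCL1 (median -1.01). Their summed signal was 25316 to 40344 in wild type and young TCL1 cells and 10659 to 17199 in TCL1-192 peritoneum, and 1 of the 7 on the array, Cr2, was undetected on all 12 arrays. Macrophage markers summed to 19309 to 29122 in wild type and young TCL1 cells, 7577 to 16269 in TCL1-192 peritoneum and 332 to 341 in spleen, with 6 of 10 lower than wild type in peritoneum. Mast cell markers were lower than wild type in 3 of 4 (median -2.93) and summed to 1184 to 2137 in wild type and young TCL1 cells and 109 to 158 in TCL1-192 peritoneum. B-1 markers were lower in 3 of 7, from sums of 20487 to 24832 to sums of 6400 to 10163. T cell markers were lower in 3 of 6 tested (7902 to 11490 against 7849 to 10417) and B cell markers in 2 of 6 (51737 to 54345 against 34412 to 45952). Erythroid markers, 3 of 3 tested higher in TCL1-192 peritoneum than in either, summed to 134 to 2535 in wild type and young TCL1 cells and 19496 to 33374 in TCL1-192 peritoneum. Of the 12 plasma cell markers on the array, 5 to 7 were detected on each array and Sdc1, Igj, Tnfrsf17 and Ell2 on none. Of the 8 tested, Fkbp11 (1.21) and Creld2 (1.46) were higher in TCL1-192 than wild type peritoneum by log2 units and Irf4 (-0.87) and Slamf7 (-1.86) lower, with sums of 31901 to 39916 in wild type and young TCL1 cells and 39838 to 41192 in TCL1-192 peritoneum. The part of other cells in the falls of the variable genes was not tested.

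Between young TCL1 and wild type cells 3 of the 45 tested members differed by limma's test, 2 higher and 1 lower in young TCL1, or 6.67%, against 1.28% of all tested rows in either direction. The count moved with the setting. It was 6 without either PtC- peritoneal TCL1-192 array (3.38% of all tested rows), 6 of all 84 rows without a filter (0.596%), 7 with the authors' normalized table (2.51%), 9 without background correction (2.75%) and 5 on PtC+ arrays alone (0.359%). IGKV6-13 read 5.03 and 6.04 in wild type PtC+ and PtC- cells and 8.56 and 7.52 in young TCL1, a rise of 2.50 ± 0.195 log2 units (limma adjusted p = 0.0015). Igh-VJ558 probe b, of the large IGHV1 family, read 4.79 and 5.77 against 7.49 and 7.74, a rise of 2.34 ± 0.21 (limma adjusted p = 0.0029). The other row, Igh-VJ558 probe a, was detected on 1 array and not tested, and read 4.73 and 4.95 against 5.08 and 5.82. IGKV11-125 read 10.25 and 8.67 in wild type and 5.87 and 7.91 in young TCL1 cells, a fall of 2.57 ± 0.216 (limma adjusted p = 0.0023). The IGKV11-125 and IGKV6-13 calls rested on the PtC+ arrays. On PtC- arrays alone they were -0.76 (limma adjusted p = 0.33) and 1.48 (adjusted p = 0.074).

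Within wild type and young TCL1 peritoneum, PtC+ cells held less of the repertoire than PtC- cells. In limma's fit of the 2 pairs, 29 of 45 tested members were lower in PtC+ cells and 0 higher, 17 heavy and 12 light chain rows, against 0.663% of all tested rows lower. With every row of the array in the fit 26 of 84 were lower, against 0.278%. The median difference was -0.23 over all 57 heavy chain rows and -1.29 over all 27 light chain rows, against 0 over all rows of the array. Of the 25 heavy chain rows detected in these cells all were detected on a PtC- array and 15 on a PtC+ array, so the remainder were taken in through PtC- cells alone and nothing is read from the direction over the 25.

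IGHV1S119 differed by -4.13 ± 0.196 log2 units between PtC+ and PtC- cells (limma adjusted p = 0.00019), from the levels given above. IGHV1S59 read 5.72 and 10.14 in wild type PtC+ and PtC- cells and 6.27 and 9.8 in young TCL1, a difference of -3.97 ± 0.277. IGHV1S35, at 6.86 and 10.73 and at 8 and 11.19, differed by -3.53, as did IGHV8S7, at 5.46 and 9.31 and at 6.61 and 9.82. IGHV1S34 was undetected in both PtC+ arrays and read 8.55 and 8.56 in PtC- cells, at least 8.2-fold higher there. In each of these rows both PtC- arrays exceeded both PtC+ arrays, which largely follows from how the rows were picked. Rows of this kind, detected on both PtC- arrays and neither PtC+ array, were 7 of the heavy chain (12.28%, IGHV10S1, IGHV1S133, IGHV1S135, IGHV1S31, IGHV1S34, IGHV1S52 and IGHV5S18) and 3 of the light chain (11.11%, Igk-V1, IGKV1-99 and IGKV2-112), compared with 262 of the 45281 rows of the array (0.58%). No member showed the opposite. Over the whole array only 242 rows did (0.53%), so nothing is read from its absence among the members.

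Light chain rows were less even between the pairs. IGKV4-53 fell most, by 3.66 ± 0.194 log2 units (limma adjusted p = 0.00024), reading 5.35 and 8.98 in wild type PtC+ and PtC- cells and 6.31 and 10 in young TCL1. IGKV3-2 differed by -1.49 in wild type and -4.46 in young TCL1, and IGKV12-98 by -2.78 and -2.08. Both Igk-V5 rows were lower in PtC+ cells (-3.19 ± 0.43 and -2.84 ± 0.367, limma adjusted p = 0.019 and 0.016), and the call of either row ended without any 1 of the 4 splenic TCL1-192 arrays that set the spread (adjusted p 0.050 to 0.078). For IGKV11-125 the PtC+ minus PtC- difference was 1.59 in wild type and -2.03 in young TCL1 cells, and for Igk-V33 it was 0.77 and -3.36. IGKV6-13 went the other way, at -1.01 and 1.04. Differences within single pairs have no test.

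Of the 5 PtC-type rows tested, IGKV4-91 alone was called higher in PtC+ cells. It read 14.89 and 11.57 in wild type PtC+ and PtC- cells and 15.18 and 12.41 in young TCL1. IGHV12S1 (1.66, limma adjusted p = 0.054), Igh-V11 (0.83, adjusted p = 0.26), IGKV9-128 (0.72, adjusted p = 0.23) and Igh-VS107 probe a (-1.05, adjusted p = 0.28) were not called. Ighg probe b fell by 3.05 log2 units in PtC+ cells (limma adjusted p = 0.0045), and Ighg probe a was not called (-0.91, adjusted p = 0.17). Of 6 follicular B-2 markers 0 differed by the test and their median was -0.61. T cell markers gave 1 of 6 lower (median -0.86), with 5 of 8 detected in PtC+ and 6 of 8 in PtC- cells and summed signals of 7902 to 11490 and 10337 to 11206. Erythroid markers gave 1 of 3 tested lower (median -1.95) and NK cell markers 1 of 2 tested lower (median -0.77). Macrophage markers gave 0 of 10 called (median 0.58). The part of the cells with these markers in the differences was not tested.

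**Figure D4:**
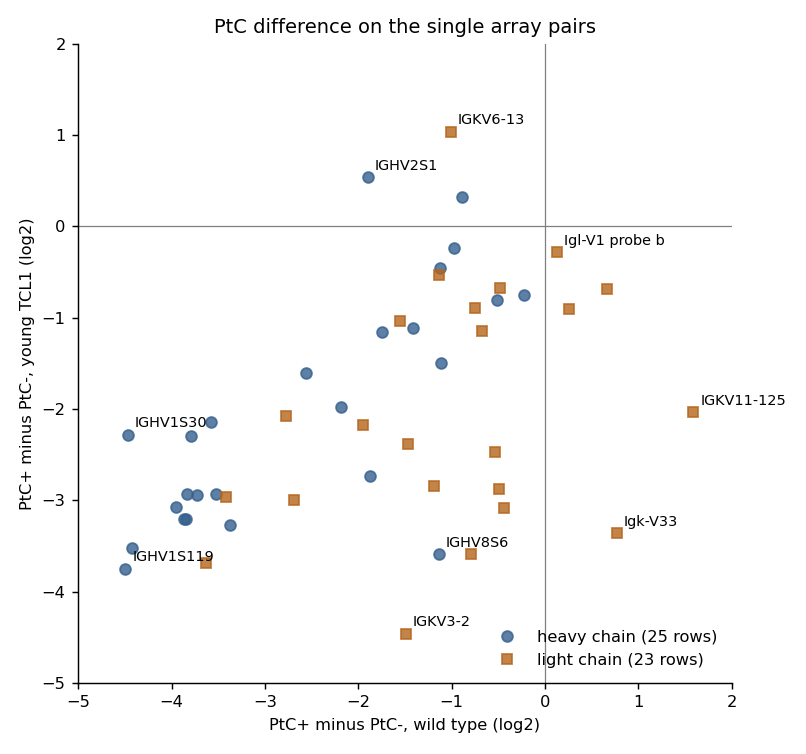
PtC+ minus PtC- log2 difference in wild type (horizontal axis) and in young TCL1 (vertical axis) for the 48 rows detected on a wild type or young TCL1 array, blue circles for heavy and orange squares for light chain. Each point comes from 1 array per class without replicates. IGHV1S119 lies at -4.5 and -3.75, and IGKV11-125 at 1.59 and -2.03. All 25 heavy chain rows plotted were detected on a PtC- array and 15 on a PtC+ array. Nothing is therefore read from where the heavy chain points lie as a group.

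In TCL1-192 cells PtC+ and PtC- arrays did not differ by the test in any member. Limma called 0 of 45, with 0 at an unadjusted p under 0.05, against 0% of all tested rows called and 8.22% with an unadjusted p under 0.05. The tested differences were at most 0.42 log2 units in size in the heavy chain (IGHV9S5, -0.42 ± 0.195, limma adjusted p = 0.61) and 0.65 in the light chain (IGKV4-80, -0.65 ± 0.39, limma adjusted p = 0.63). Among TCL1-192 arrays IGKV4-80 was detected on the one with raised background alone, at 6.84 against 4.67 to 5.15 on the other TCL1-192 arrays. Without PtC- peritoneal replicate 1, which leaves that array alone in its group, IGKV4-80 was called at -1.13 (limma adjusted p = 0.0082). Few members were detected on either side, so most of these differences lie near the detection limit. Igl-V1 probe a differed by 0.41 in peritoneum and -0.03 in spleen, and IGKV2-137 by 0.48 and -0.21.

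Testing the PtC difference of wild type and young TCL1 cells against that of TCL1-192 peritoneum, limma called 21 of 45 members, all more negative in wild type and young TCL1 than in TCL1-192 peritoneum, against 0.459% of all tested rows in that direction. They were 15 heavy and 6 light chain rows. IGHV1S119 led at -4.22 ± 0.278 log2 units (limma adjusted p = 0.0026), with a PtC difference of -4.5 in wild type, -3.75 in young TCL1 and 0.09 in TCL1-192 peritoneum. A row at the detection limit in TCL1-192 cells cannot differ there, which this test does not set apart. The count ranged from 11 without PtC+ peritoneal replicate 2, through 12 without any 1 splenic array and 13 without PtC+ peritoneal replicate 1, to 29 and 30 without PtC- peritoneal replicate 1 or 2.

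Between the tissues of TCL1-192 cells few members passed the test. Limma called 1 of 45 higher in spleen and 0 lower, against 24.4% of all tested rows in either direction. Of the 84 members 15 were detected on any TCL1-192 array. Most tested members thus lay near the detection limit in both tissues and could hardly differ, so nothing is read from the low count. Igh-VJ558 probe b read 4.87 and 4.95 in PtC+ and 4.86 and 4.74 in PtC- peritoneal cells, none detected, and 5.31 and 5.73 in PtC+ and 5.72 and 5.87 in PtC- splenic cells, 3 of 4 detected. The difference was 0.80 ± 0.149 log2 units (limma adjusted p = 0.009), and 0.61 on PtC+ arrays alone (limma adjusted p = 0.083). Igh-VJ558 probe a, not tested and undetected on every TCL1-192 array, read 4.69 to 5.11 in peritoneum and 4.69 to 5.21 in spleen. IGKV2-137 was 0.73 ± 0.257 higher in spleen and was not called (limma adjusted p = 0.081). The constant region row IGLC2 was 0.67 higher in spleen (limma adjusted p = 0.013). B-1 markers were higher there in 5 of 7 (median 0.81), with summed signals of 6400 to 10163 in peritoneum and 15073 to 18380 in spleen. Macrophage markers were lower in spleen in 9 of 10 (median -3.12) and erythroid markers in 3 of 3 tested (median -3.47). The part of the cells with these markers in the Igh-VJ558 difference was not tested.

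The kappa rows could be set in the order of their locus. The array table names no genome build, so positions are given only as the order of genes in RefSeq (GRCm38.p6), counted from the joining genes. Of the 84 members 17 matched a RefSeq symbol, 6 a synonym and 61 neither, the last mostly heavy chain rows whose names carry an S. The RefSeq table holds 162 kappa variable genes, 102 of them annotated as segments and 60 as pseudogenes, and 20 light chain rows found a place. The 5 rows nearest to the joining genes were IGKV3-2 (order 2), IGKV6-13 (14), IGKV8-31 (33), IGKV4-53 (55) and IGKV4-71 (81). All 5 were detected in wild type or young TCL1 cells and none in TCL1-192 cells. Of the 15 rows farther out 13 were detected in the former and 4 in the latter, 2 of these 4 being the rows of Igk-V38 (order 109).

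IGKV2-137, the kappa row detected on all arrays, is the outermost gene at order 162, with 9 genes between it and the PtC-type gene IGKV9-128. IGKV11-125 (order 148) lies closer to IGKV9-128, with 3 genes between them, and IGKV9-120 has order 143. Both were detected on all 4 wild type and young TCL1 arrays and on no TCL1-192 array. IGKV4-90 (order 106) is the direct neighbour of the PtC-type gene IGKV4-91. It read 5.75 and 6.23 in wild type PtC+ and PtC- cells, 5.17 and 5.84 in young TCL1 and 4.75 to 5.11 in TCL1-192 cells. IGKV8-31 is annotated as a pseudogene in this C57BL/6J assembly, as are IGKV9-128 and the undetected IGKV13-78-1 and IGKV4-75, although the mice were of mixed background.

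**Figure D5:**
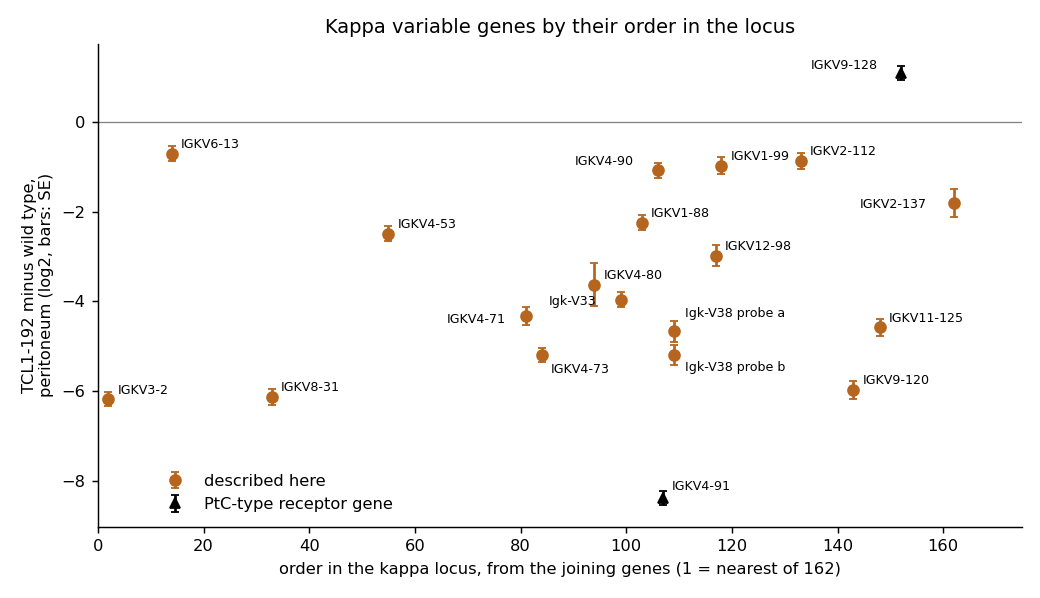
TCL1-192 minus wild type log2 difference in the peritoneum, with SE bars, for kappa variable rows tested, against the order of the gene from the joining genes among 162. Circles are the rows described here and triangles the PtC-type genes IGKV4-91 and IGKV9-128. Falls of about 6 occur at order 2 (IGKV3-2), 33 (IGKV8-31) and 143 (IGKV9-120). Many rows were kept for testing through wild type and young TCL1 arrays alone, so nothing is read from all circles lying below 0.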

How the data were processed

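The 12 Illumina bead arrays measured RNA of the sorted cells (extraction by Trizol and RNeasy, biotinylated cRNA by the Ambion MessageAmp kit, per the labels). The authors' deposited non-normalized table holds linear signal intensity for 45281 rows, and, per the file headers, a detection p-value per row and array. Their second deposited table, intensity values with the same quantiles on each array, served as an alternative, and the sources used here do not name its tool.

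In R 4.3.3 with limma 3.58.1, neqc corrected background (its control statistics were derived from the detection p-values), added 16, quantile normalized and took log2. Rows detected on at least 2 arrays were kept (18100). A model with 8 group means (4 residual degrees of freedom, prior 3.29, prior SD 0.254) gave 7 two-sided contrasts, Benjamini-Hochberg adjusted over all rows kept, threshold 0.05. Errors are SE. "At least" folds set the undetected side at the lowest detected level of each array. The code was tested on simulated data. The number of arrays limits precision.

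Members, lists and tests were chosen with earlier results of these data known. Named members are those detected on all arrays or on 4 or more TCL1-192 arrays, the 5 largest calls per chain and direction, and those of 1 detection class. Other rows were named after their values were seen. Alternatives were filters, detection thresholds, normalization, background correction, an intensity trend, 1 row per symbol, a replicate block, PtC classes or tissues alone, and leaving out each TCL1-192 array. No member sequence could be printed from the sources used here. Replicate numbers were not taken as pairs.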

Additional observations from a re-analysis of the deposited data

Results flagged for a closer look

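The PtC difference was unlike between wild type and young TCL1 peritoneum on one side and TCL1-192 peritoneum on the other for 21 of 45 tested members, by limma's test of the difference itself (0.459% of all tested rows were called in that direction). For IGHV1S119 the log2 difference of differences was -4.22. It was -3.58 for IGHV1S59, -3.54 for IGHV8S7, -3.51 for IGHV1S35 and -3.46 for IGHV1S120. Among light chain rows it was -3.52 for IGKV4-53, -2.88 for IGKV3-2, -2.76 for IGKV12-98, -2.30 for IGKV4-71 and -2.28 for IGKV1-99. These 10 rows were undetected on every peritoneal TCL1-192 array, so the TCL1-192 side of each is a reading near the detection limit. The calls of IGHV1S59, IGKV12-98, IGKV4-71 and IGKV1-99 ended without either PtC+ peritoneal TCL1-192 array (limma adjusted p 0.073 to 0.21) and without any 1 of the splenic arrays (0.054 to 0.14). Those of IGKV12-98 and IGKV4-71 also ended with the replicate block (0.054 and 0.059), that of IGKV12-98 with no filter (0.051) and that of IGKV4-71 with median centring (0.13). That of IGHV8S7 ended without PtC+ peritoneal replicate 2 (0.052).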

How the results depend on the processing

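The falls of the members in TCL1-192 cells, counted as calls, held within 1.5 times under most settings tried. Signs were followed only for the members with the largest calls in each comparison, and none of these changed sign. IGKV1-99, called lower than wild type (-0.98), was not followed there. On PtC+ arrays it read 5.06 in wild type cells and 4.95 and 5.38 in TCL1-192 peritoneum. With rows required on at least 6 arrays, 9 members were left to test, and the calls numbered 4 against wild type, 5 against young TCL1, 1 between young TCL1 and wild type, and 0 both for PtC in wild type and young TCL1 and for the difference of PtC differences. Both Igk-V5 rows stayed among the 9 and missed the threshold for PtC in wild type and young TCL1 (limma adjusted p 0.077 and 0.07); the cause was not tested. With PtC+ arrays alone 21 members differed from wild type. Young TCL1 against wild type gave 6 calls without a filter, 7 with the authors' table, 9 without background correction and 5 on PtC+ arrays alone, in place of 3. Spleen against peritoneum gave 2 calls with the authors' table, median centring, no background correction, an intensity trend or the replicate block, and 0 on PtC+ arrays alone, in place of 1. For TCL1-192 cells the heavy chain rows detected were 2 and 0, and the light chain rows 4 and 3, at detection p 0.01 and 0.001.

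Leaving out each TCL1-192 array gave 37 to 41 calls against wild type, 36 to 39 against young TCL1, 3 to 6 between young TCL1 and wild type (6 without either PtC- peritoneal array), 0 to 1 for PtC in TCL1-192 cells, 1 to 4 for spleen (4 without either PtC- peritoneal array), 22 to 33 for PtC in wild type and young TCL1, and 11 to 30 for the difference of PtC differences. Heavy chain rows detected were 5 to 6 and light chain rows 8 to 9. Where a group is left with 1 array, it is assumed to vary like the others. Igk-V38 probe b, not called for PtC in TCL1-192 cells, turned to -0.22 in spleen alone; the cause was not tested. Median centring moved the median of all rows by over 0.1 in 5 comparisons, to -0.24 against wild type, -0.25 against young TCL1, 0.13 for PtC in TCL1-192 cells, 0.25 for spleen and -0.19 for the difference of PtC differences.

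With the TCL1-192 replicate number as a block the calls were 40, 3 and 39 for the comparisons with wild type, between young TCL1 and wild type, and with young TCL1. They were 0 for PtC in TCL1-192, 2 for spleen, 27 for PtC in wild type and young TCL1 and 18 for the difference of PtC differences. Same-numbered arrays deviated together with correlations of 0.031 to 0.241 over 6 pairs of groups, so the numbers were not treated as pairing the samples.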
